A study of Mus musculus with 2 samples.

Results

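Mir126a, Mir221 and Mir222 are mouse microRNA (miRNA) genes known from endothelial cells and from blood stem and progenitor cells. They were chosen by name and not by their values, as Mir126a within the gene Egfl7 and as the Mir221 and Mir222 pair on chromosome X. These 3 genes were taken from 1973 gene identifiers in the count tables, and all 3 were among the 294 genes that reached 10 counts in each library, called detected here. The samples were whole thymus, both lobes, of B6NCrl pups on postnatal day 0, with 1 small RNA library (under 30 nucleotides) from each of 2 littermates, pup 2 as replicate 1 and pup 3 as replicate 2. No treatment or genetic change is given in the labels, the sex was not recorded, and both libraries formed 1 group. The data therefore give levels in newborn thymus and the spread between 2 libraries, with no contrast between conditions, and a difference between pups cannot be told apart from one of dissection or library preparation. Replicate 1 had 2734133 counts on the strand of miRNA genes and replicate 2 had 1289151, and levels are given as counts per 1000000 of these (CPM).

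A miRNA is cut from a hairpin precursor, and its bases 2 to 8, the seed, pair with target messenger RNAs and lower their output. miR-126 is made from an intron of Egfl7, a secreted protein of endothelial cells. In mouse and zebrafish vessels it represses Spred1 and Pik3r2, inhibitors of the signalling that follows vascular endothelial growth factor, and in blood stem cells it restrains cycling. miR-221 and miR-222 are processed from 1 primary transcript. In human endothelial cells and erythroid progenitors they repress KIT, the receptor of stem cell factor, and in human tumour lines CDKN1B, an inhibitor of the cell cycle. Newborn thymus holds vessels, by which progenitors enter the organ, beside thymocytes, epithelium and mesenchyme. In whole tissue, more cells of a type and more RNA per cell cannot be told apart.

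The mature sequences are shown because the seed groups the 3 genes into 2 families. They are RefSeq's for GRCm38.p6, 5′ to 3′, with the seed in capitals, and all 3 genes were matched there.
mmu-miR-126a-3p: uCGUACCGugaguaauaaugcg
mmu-miR-221-3p: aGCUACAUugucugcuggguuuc
mmu-miR-222-3p: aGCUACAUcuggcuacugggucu
mmu-miR-221-5p: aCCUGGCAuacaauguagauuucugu
miR-221-3p and miR-222-3p shared their first 8 bases, and with them the seed GCUACAU. Past the seed they diverged. Aligned without gaps over 23 bases, 11 were identical and 12 differed, from U9C to C23U, counted from 1 at the 5′ end with the base of miR-221-3p first. Among 1738 mature miRNAs in the table, GCUACAU was also the seed of miR-1928, whose gene Mir1928 had 0 counts in both libraries. No other gene's mature miRNA carried the seed of miR-126a-3p, CGUACCG, or that of miR-221-5p, CCUGGCA.

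The hairpins are shown because the tables count reads per hairpin gene, so the arms of a hairpin were not counted apart. Capitals mark the mature miRNAs that RefSeq lists, from 1 arm only for Mir126a and Mir222. Counts of these genes can therefore also hold reads of the arm not listed.
Mir126a hairpin: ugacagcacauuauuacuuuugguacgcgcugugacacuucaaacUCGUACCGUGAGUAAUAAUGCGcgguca
Mir221 hairpin: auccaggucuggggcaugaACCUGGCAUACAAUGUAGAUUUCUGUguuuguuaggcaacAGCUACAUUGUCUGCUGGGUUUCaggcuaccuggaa
Mir222 hairpin: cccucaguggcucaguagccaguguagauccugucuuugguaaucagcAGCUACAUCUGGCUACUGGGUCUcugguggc
The Mir221 and Mir222 hairpins, of 95 and 79 bases, were identical at 60 of 96 aligned positions (62.5%, gaps counted as differences). Read on the same strand, none of the 3 hairpins shared a stretch of 20 bases with the hairpin of another gene. Of 257 detected genes with a RefSeq hairpin, 51 shared such a stretch. This bears on the counts because reads mapping to more than 1 place were tallied apart from genes, 56.3% of all reads in replicate 1 and 57.5% in replicate 2.

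Mir126a (ENSMUSG00000065540.1) lay at chr2:26591357-26591429 on the plus strand of GRCm38, 11343 bases from the annotated start of Egfl7 (chr2:26580014-26593120, plus strand). In the Egfl7 transcripts of 10 exons it lay in intron 7, 293 bases after exon 7 and 234 bases before exon 8. Of 19 annotated Egfl7 transcripts, 8 held it in an intron, 1 transcript with a retained intron held it in an exon, and 10 did not reach it. Mir221 (ENSMUSG00000065422.1) lay at chrX:19146294-19146388 and Mir222 (ENSMUSG00000065471.1) at chrX:19146893-19146971, both on the minus strand, so that Mir222 comes first in the direction of transcription. A gap of 504 bases separated the hairpins. No other annotated gene overlapped the 678 bases from one to the other, and the nearest, the noncoding Gm14636, began 10009 bases away. Within 10 kb of any of the 3 genes, the count tables held no miRNA gene except Mir221 and Mir222 themselves.

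**Figure D1:**
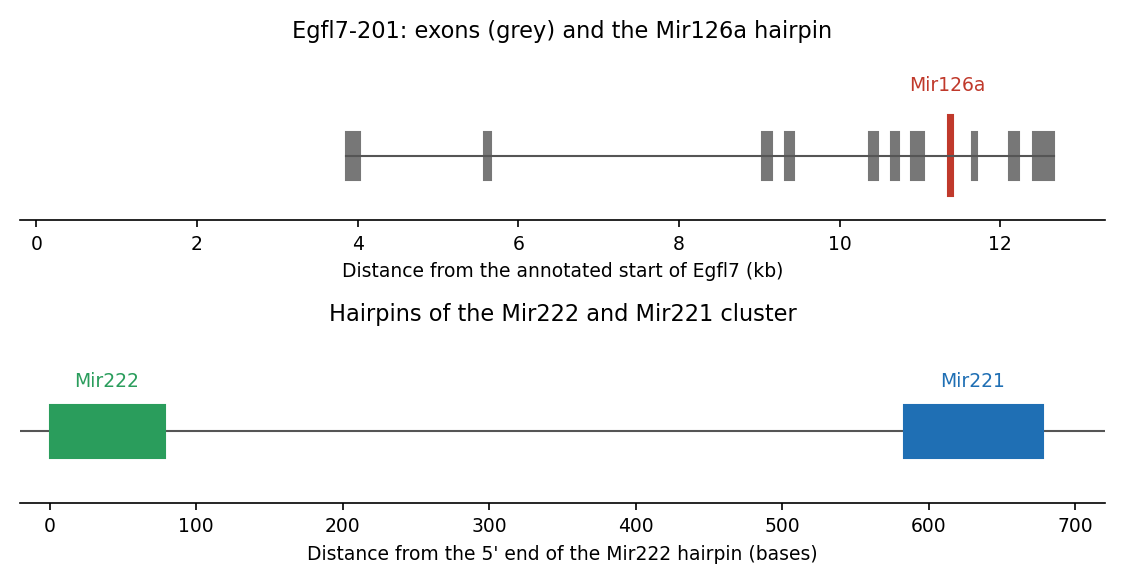
Position of the 3 hairpins along the gene or cluster. The upper row shows the exons of the Egfl7 transcript Egfl7-201 (grey) and the Mir126a hairpin (red) by distance from the annotated start of Egfl7 in kb, and the lower row the hairpins of Mir222 (green) and Mir221 (blue) by distance from the 5′ end of Mir222 in bases; Mir126a sits between exons 7 and 8, and 504 bases separate the pair.

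Mir126a was among the genes with the most counts on the gene strand in the newborn thymus. It had 76689 counts in replicate 1 and 48083 in replicate 2, or 28049 CPM (95% Wilson interval 27854 to 28245) and 37298 CPM (36973 to 37627). It ranked 10th in replicate 1 and 7th in replicate 2, and its mean of 32673 CPM ± 6540 (SD, n = 2) ranked 8th. These ranks cover counts on the gene strand alone. The strand opposite to Mir142b, where the leukocyte miRNA gene Mir142 is annotated, held 387318 reads in replicate 1 and 178605 in replicate 2, more than the 202451 and 79394 of the leading gene Mirlet7g, and with it Mir126a would rank 11th and 8th. Multimapping reads were not counted, which can lower genes with like copies and so raise the rank of a gene such as Mir126a that has none. The gene alone took 2.80% of assigned counts in replicate 1 and 3.73% in replicate 2. Of the 23 endothelial and angiogenic genes listed for comparison it was the most abundant, ahead of Mir23a, of a cluster that promotes vessel sprouting, at 23564 CPM. These intervals cover counting error only, since the labels describe no molecular identifiers.

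Mir221 and Mir222 were detected at middling levels. Mir221 had 1044 counts in replicate 1 and 497 in replicate 2, or 382 CPM (359 to 406) and 386 CPM (353 to 421), with a mean of 384 CPM ± 2.61 (SD, n = 2). Mir222 had 543 counts in replicate 1 and 214 in replicate 2, or 199 CPM (183 to 216) and 166 CPM (145 to 190), with a mean of 182 CPM ± 23.1 (SD, n = 2). Mir221 ranked 134th and Mir222 163rd by mean among the detected genes, close to the middle of that order. Among 34 detected genes of chromosome X they ranked 20th and 26th. The order of Mir126a, Mir221 and Mir222 was the same in both libraries, and the intervals of neighbours in that order did not overlap within either library.

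**Figure D2:**
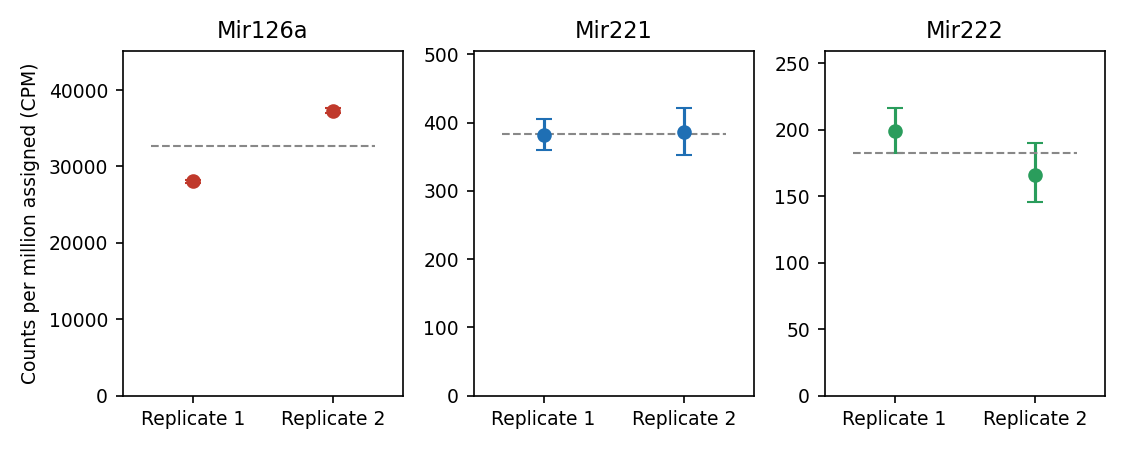
Level of each gene in both libraries, in CPM, each panel on its own axis from 0. Points are single libraries, bars are 95% Wilson intervals of counting error, and dashed lines are means; Mir126a is at 28049 and 37298 CPM in replicates 1 and 2, Mir221 at 382 and 386, and Mir222 at 199 and 166.

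**Figure D3:**
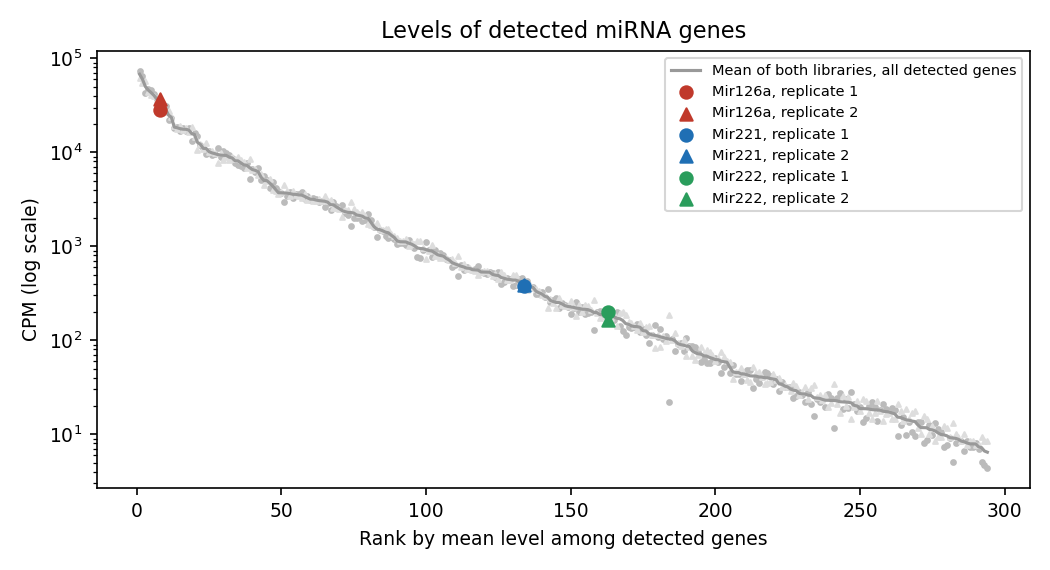
All 294 detected miRNA genes in order of mean level, with CPM on a log scale. Circles are replicate 1 and triangles replicate 2; Mir126a stands 8th, Mir221 134th and Mir222 163rd.

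Mir126a exceeded the pair by far. Its counts were 73.5 times those of Mir221 in replicate 1 (exact 95% interval 69.1 to 78.2) and 96.7 times in replicate 2 (88.6 to 106), with a mean of 85.1 ± 16.5 (SD, n = 2). Against Mir222 the ratio was 141 (130 to 154) in replicate 1 and 225 (196 to 258) in replicate 2, with a mean of 183 ± 59.0 (SD, n = 2). Even summed, Mir221 and Mir222 reached 580 CPM in replicate 1 and 552 CPM in replicate 2, which Mir126a exceeded 48.3 times and 67.6 times. Counts of different miRNAs also depend on how well each is ligated and amplified, so these are ratios of counts and not of molecules.

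Within the pair, Mir221 was the more abundant in both libraries. Its counts were 1.92 times those of Mir222 in replicate 1 (1.73 to 2.14) and 2.32 times in replicate 2 (1.97 to 2.74), with a mean of 2.12 ± 0.283 (SD, n = 2). Mir221 thus made up 65.8% of the pair's counts in replicate 1 (Wilson interval 63.4 to 68.1) and 69.9% in replicate 2 (66.4 to 73.2). The intervals of the libraries overlapped. For comparison, 103 other pairs of adjacent detected miRNA genes lay on 1 strand with starts within 10 kb, some sharing a gene. The log2 ratio of levels within a pair was averaged over both libraries and its absolute value taken. It was 1.08 for Mir221 and Mir222, against a median of 2.58 over the others, of which 79 were more unequal and 24 less. Multimapping reads were not counted, which can lower genes with like copies and so alter the ratio in pairs that hold them. Mir221 and Mir222 shared no 20 bases with another gene's hairpin on the same strand. Of 257 detected genes with a RefSeq hairpin, 51 did share. How far this shaped the comparison was not tested. The pair's log2 ratio moved by 0.27 between the libraries, against a median of 0.26 over the others, of which 48 moved more.

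**Figure D4:**
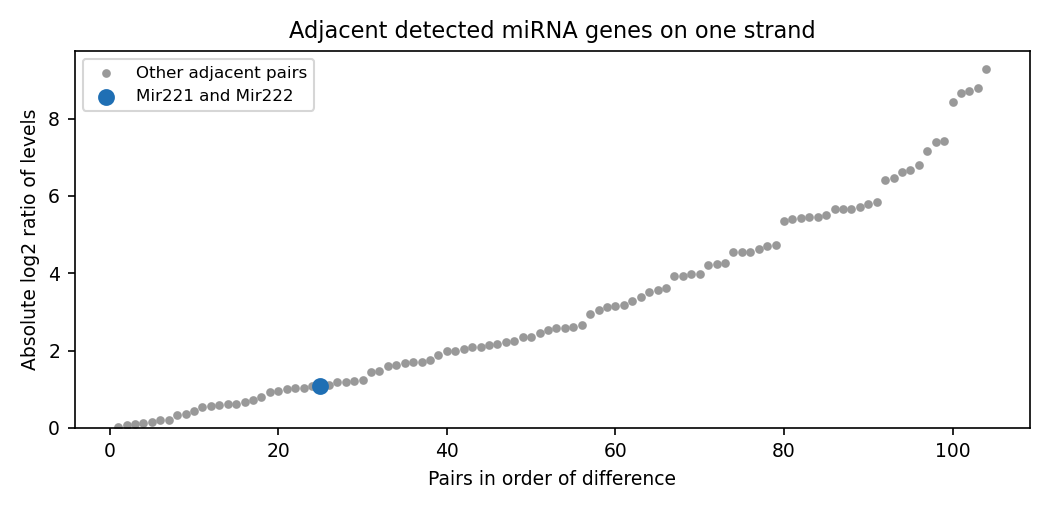
Log2 ratio of levels within each of 104 pairs of adjacent detected miRNA genes, averaged over both libraries, as an absolute value and in order of size. The blue point is the pair of Mir221 and Mir222 at 1.08, with 24 pairs below it and 79 above.

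Between the littermates, Mir126a was lower in replicate 1, Mir222 was higher there, and Mir221 did not pass the test. A two-sided exact binomial test compared each gene's counts between the libraries, given library sizes scaled by TMM (trimmed mean of M values), with Benjamini-Hochberg adjustment over all 294 detected genes and a threshold of 0.05. Ratios put replicate 1 over replicate 2. The log2 ratio of Mir126a was -0.34 (exact 95% interval -0.36 to -0.33), or 0.787 times the level, with a p too small for double precision to hold. Mir222 had a log2 ratio of 0.33 (0.094 to 0.56, adjusted exact binomial p = 0.014), or 1.25 times the level. Mir221 had a log2 ratio of 0.05 (-0.10 to 0.21, adjusted exact binomial p = 0.67), an interval that leaves room for a difference of either sign.

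The count of 2 called genes among 3 is to be read against the background, in which 128 of 294 detected genes (43.5%) were called, 69 of them higher in replicate 1 (23.5%) and 59 lower (20.1%). The share called rose with abundance, from 13 of 109 genes under 100 CPM to 38 of 89 between 100 and 1000 CPM, and to 77 of 96 at 1000 CPM or more. In size, 83 of the 294 genes had a larger absolute log2 ratio than Mir126a, 93 than Mir222 and 246 than Mir221. The test sets 1 library against 1 by counting error alone and compares these libraries, not conditions. With a negative binomial test in edgeR, whose spread was estimated from the same libraries, neither Mir126a nor Mir222 passed (adjusted p = 1 for both). Scaled to total assigned counts, the calls over all genes split into 52 higher and 72 lower in replicate 1, Mir222 no longer passed (log2 ratio 0.26, adjusted exact binomial p = 0.061) and the ratio of Mir221 turned to -0.01.

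**Figure D5:**
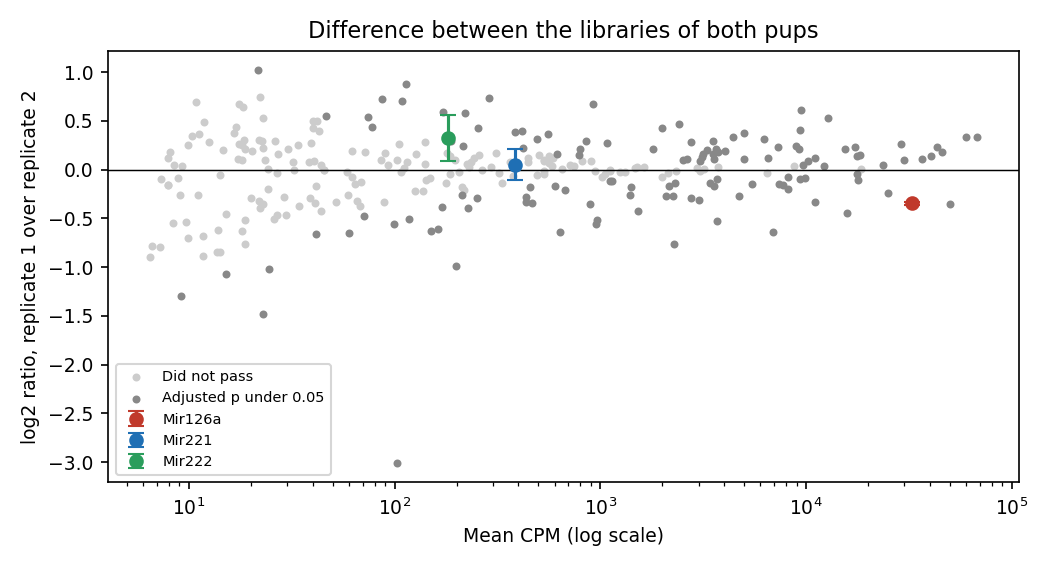
Log2 ratio of replicate 1 over replicate 2 against mean CPM on a log scale, for 294 detected genes. Dark grey points passed the exact binomial test and light grey did not; bars on the coloured points are exact 95% intervals, with Mir126a at -0.34, Mir221 at 0.05 and Mir222 at 0.33.

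Some markers of other cell types in the thymus also passed the test between the libraries. Their calls stand beside 43.5% of all detected genes called, and 80.2% of those at 1000 CPM or more. Mural and mesenchymal markers, 6 of 6 being in the tables, summed to 45733 CPM in replicate 1 and 60634 CPM in replicate 2, of which Mir143, a miRNA of smooth muscle, made up 94.0% and 94.5%. Of the 5 detected, 2 were lower in replicate 1, Mir143 (log2 ratio -0.35) and the mesenchymal Mir214 (-0.51), and 3 did not pass. Scaled to total assigned counts, 3 were lower and 2 did not pass. Under TMM scaling, those that did not pass were Mir145a (-0.08), Mir199a-2 (-0.26) and Mir199b (-0.07). The log2 ratio of Mir126a was -0.34. Epithelial markers summed to 36005 CPM in replicate 1 and 37225 CPM in replicate 2, with 1 of 6 higher, 3 lower and 2 not passing (1 higher and 5 lower when scaled to total assigned counts). Leukocyte markers, 3 of 4 being in the tables, summed to 6564 CPM in replicate 1 and 6355 CPM in replicate 2, with 2 higher and 1 lower. This sum leaves out Mir142, whose reads lie opposite to Mir142b as given above and far exceed it, so it is no measure of the leukocyte content. Erythroid markers summed to 233 CPM in replicate 1 and 175 CPM in replicate 2. Of the 2 of 3 detected, Mir451a was higher in replicate 1 (0.88) and Mir144 did not pass (0.10). Mir486, with 5 counts in replicate 1 and 9 in replicate 2, was not detected. Striated muscle markers summed to 467 CPM in replicate 1 and 627 CPM in replicate 2, with Mir208b, of the heart myosin gene Myh7, lower in replicate 1 (-3.01), Mir206 not passing (0.08), 5 of 6 in the tables, and Mir1a-1, Mir133a-1 and Mir133a-2 at 0 in both libraries. Each of the genes at 0 shares 20 bases with another miRNA gene, Mir1a-1 with Mir1a-2 and both Mir133a genes with each other and Mir133b, so that their reads can be multimapping and uncounted, and the 0 is no measure of level. Outside this list, Mir499 was also lower in replicate 1 (-1.48), and Mir208a had 6 counts there against 105 in replicate 2. Mir133b and Mir1b had more counts in replicate 1, 19 against 4 and 11 against 2. Mir208a, Mir133b and Mir1b fell under 10 counts in 1 library and were not tested. Mir126a was the single endothelial marker counted. The part of these cell types in the difference of Mir126a was not tested.

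The genes linked to vessels, with Mir126a, Mir221 and Mir222 counted among them, went both ways. Of 23 endothelial and angiogenic genes, 21 were in the tables and 19 detected, of which 8 were higher in replicate 1, 6 were lower and 5 did not pass, with a median log2 ratio of 0.03 against 0.03 over all 294 genes. These 14 calls among 19 stand beside 43.5% of all detected genes called, and 80.2% of those at 1000 CPM or more. Scaled to total assigned counts, 5 were higher, 7 lower and 7 did not pass, with a median of -0.04, again against -0.04 over all genes. Among the lower ones beside Mir126a were Mir100 (log2 ratio -0.33) and Mir92-1 (-0.15), whose miRNA restrains vessel growth. Among the higher ones were Mir296 (0.46), Mir503 (0.39), Mir155 (0.30) and the hypoxia-induced Mir210 (0.28). Mir218-1 and Mir218-2, whose miRNA acts on Slit and Robo guidance signals, stayed under 10 counts in at least 1 library, with 12 and 18 counts in replicate 1 against 0 and 6 in replicate 2. Most of these genes are also expressed outside endothelium.

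Of 16 genes linked to blood stem and progenitor cells, all were detected, 5 were higher in replicate 1, 6 were lower and 5 did not pass, with a median log2 ratio of 0.02 against 0.03 over all 294 genes. Over all detected genes 43.5% were called, and 80.2% at 1000 CPM or more. Scaled to total assigned counts, 3 were higher, 6 lower and 7 did not pass, with a median of -0.05. Mir126a led this list too, followed by Mir99a, of the group of Mir99 and Mir100 genes, at 15865 CPM. Mir99a (log2 ratio -0.45), Mir99b (-0.53) and Mir100 (-0.33) were lower in replicate 1, as Mir126a was. Mir146 (0.67), which dampens inflammatory signalling, and Mir29a (0.20) were higher there, as Mir222 was. The lists share members, Mir126a, Mir221 and Mir222 among them, so their counts are not separate.

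The detected genes nearest to each of the 3 were found by Euclidean distance in log2(CPM + 1) over the 2 libraries. Nearest to Mir126a were Mir93 (distance 0.35), Mir181a-1 (0.41) and Mir20a (0.50). Unlike Mir126a, all of these were higher in replicate 1, with log2 ratios of 0.10, 0.11 and 0.27, so they match it in level and not in direction. Nearest to Mir221 were Mir434 (0.09), Mir195a (0.10) and Mir501 (0.23). Mir434 had 981 counts in replicate 1 and 505 in replicate 2, against 1044 and 497 for Mir221. Nearest to Mir222 were Mir101a (0.07), Mir3074-1 (0.11) and Mir362 (0.14). Mir101a had 556 counts in replicate 1 and 224 in replicate 2, against 543 and 214 for Mir222. With only 2 libraries, this likeness is mostly one of level.

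The strand opposite to Mir126a held a few reads. That strand carries Mir126b, an annotated gene (chr2:26591363-26591420, minus strand) whose hairpin of 58 bases is the reverse complement of a stretch within the Mir126a hairpin, and which was not analysed here as a gene of its own. Its mature miRNAs are shown, with the seed in capitals, because their seeds differ from that of miR-126a-3p.
mmu-miR-126b-5p: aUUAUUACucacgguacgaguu
mmu-miR-126b-3p: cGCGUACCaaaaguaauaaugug
Opposite to Mir126a lay 13 reads in replicate 1 and 8 in replicate 2, or 0.0169% and 0.0166% of all reads over that locus. Mir221 and Mir222 had 0 reads on the opposite strand in both libraries. Of the 294 detected genes, 14 in replicate 1 and 18 in replicate 2 had any opposite read. Among the 20 most abundant genes, 2 in replicate 1 and 3 in replicate 2 had any, and Mir126a had the largest share of these 20 in both. Over all detected genes with an opposite read the median share was higher, 0.0615% in replicate 1 and 0.0746% in replicate 2, and 8 genes in replicate 1 and 13 in replicate 2 exceeded Mir126a, up to 18.5% and 28.4% at Mir3074-1.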

How the data were processed

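The authors deposited a table of raw counts for each library, neither pooled nor normalized, with reads mapped to mm10 and counted over GENCODE M4, per the text files deposited with the tables. The sources used here name no aligner or counter. For every gene, the first count column is the other columns summed, and the second, with the larger total, was taken as the strand of the gene. CPM is its count over its sum across genes. Symbols and coordinates came from GENCODE M21 for 1894 of 1973 identifiers, and the 79 others had 0 counts on that strand. Unmapped reads (10.6% in replicate 1, 9.17% in replicate 2), multimapping reads (56.3%, 57.5%) and reads outside miRNA genes (2.99%, 2.57%) were left out.

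With 1 group, edgeR had no group term to test. TMM factors and the negative binomial test used edgeR 4.0.16 in R 4.3.3, alternative size factors DESeq2 1.42.0, and intervals and exact tests scipy 1.17.1. The exact test was checked on counts simulated with counting error alone. That check cannot show how the test fares when libraries differ by more than counting error. Alternatives also covered the unstranded column, other denominators and filters of 1 or 100 counts. Named genes were the 3 genes, genes starting within 10 kb and genes with the same seed. Also named were the 3 nearest in level and the 2 most abundant of each list. Other list genes, and those named outside the striated muscle list, are examples named after their values were seen. The genes and lists were chosen with earlier results of these data known. The labels give both pups 1 donor identifier. Exact binomial p-values compare these libraries by counting error, and differences between them may be technical.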

Additional observations from a re-analysis of the deposited data

Results flagged for a closer look

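Reads on the strand opposite to Mir126a lay outside the measurement used for levels. They numbered 13 in replicate 1 and 8 in replicate 2, or 0.0169% and 0.0166% of all reads over that locus. Both numbers exceed the 3 counts that a count of 0 allows, which shows only that such reads were present. No control sample was there to set them against. The source of these reads was not tested.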

How the results depend on the processing

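Of the results recomputed, the ratios of counts between the 3 genes moved by less than 1 SD under the unstranded column, and ran from 73.5 to 96.7 for Mir126a over Mir221, 141 to 225 for Mir126a over Mir222 and 1.92 to 2.32 for Mir221 over Mir222 when either library was left out. Levels moved with the denominator. Per 1000000 of all tallied reads, Mir126a was at 8517, Mir221 at 99.8 and Mir222 at 47.4. With the unstranded column, Mir126a was at 27955 CPM, Mir221 at 328 CPM and Mir222 at 156 CPM. Without the most abundant gene in the denominator, Mir126a was at 35019 CPM, Mir221 at 412 CPM and Mir222 at 196 CPM. The lower level of Mir126a in replicate 1 passed under every scaling, column and filter tried, with log2 ratios from -0.41 to -0.33, but not with the negative binomial test (-0.34, adjusted p = 1), nor did Mir222 (0.32, adjusted p = 1), and that test called 1 of 294 genes against 128, with 15 at an unadjusted p under 0.05. The negative binomial test took its spread from the same libraries, so their differences also widen that spread. It cannot decide whether they exceed the spread between littermates. With total assigned counts as the scale, Mir222 missed the threshold (0.26) and Mir221 turned to -0.014, where neither sign passes. The other fits kept Mir222 past the threshold. Counts of called genes stayed between 115 and 131 in the exact binomial fits. The genes tested numbered 191 at the filter of 100 counts, 294 in the main fit and 516 at 1 count. The share called therefore fell as the filter was relaxed. No paired analysis was possible because there is 1 group. The cause was not tested. Depth limits Mir222 most, with 214 counts in replicate 2.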
